A study of Mus musculus with 21 samples.

Results

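The CEBPB mutant CEBPB(V285A) was compared with wild-type CREB1 on double-stranded DNA in which both strands carried unmodified cytosine (C). The comparison used 4 of the 21 protein binding microarrays of the series, chosen by their labels: 2 arrays of CEBPB(V285A) and 2 of CREB1. A protein binding microarray is a slide of short DNA probes, made double-stranded by primer extension and incubated with a tagged protein, whose fluorescence is then read spot by spot. Both proteins were DNA-binding domains only, with an N-terminal GST tag, expressed by in vitro transcription and translation from a plasmid, and the mutant was made by site-directed mutagenesis of the wild-type CEBPB construct. Neither full-length protein nor cells were involved. Wild-type CEBPB on C was not analysed here, so no value below separates the V285A substitution from the CEBPB background. The labels do not say whether the replicates of a protein were prepared separately, so the spread between them may be technical. Unless another fit is named, SEs and p-values for scores of single sequences rest on variance pooled over all 21 arrays. Those for scores averaged over the strands and for spots rest on the 6 arrays on C. They therefore do not measure the spread of these 4 arrays alone. The CEBPB(V285A) arrays carried a different array run number from the CREB1 arrays, and run and protein cannot be told apart.

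CREB1 and CEBPB are bZIP transcription factors, which bind DNA as dimers with a basic region of each monomer reading a short half-site. CREB1 is known for the cAMP response element, in which half-sites GTCA meet at a central CpG in the CRE palindrome TGACGTCA. C/EBP proteins are known for the half-site GCAA, as in the C/EBP palindrome TTGCGCAA. The half-site GTAA gives the PAR palindrome TTACGTAA, named after the proline- and acidic-rich bZIP factors. A pair of different half-sites, such as CRE and PAR in TGACGTAA, makes a mixed site that reads differently on the opposite strand (here TTACGTCA).

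The probes below show what the sites look like on the array, each with the site in capitals and the synthesised strand written from 5′ to 3′. The first 4 are the spots with the median difference among those that carried the CRE palindrome, the PAR palindrome, the C/EBP palindrome, or a CRE half-site paired with a PAR half-site, once and with no other such pair. The fifth is the spot with the largest rise in CEBPB(V285A) among those called after background correction. Called means an adjusted p under 0.05 in limma's test. Capitals in the fifth mark TTA and TAA, the outer bases of PAR half-sites, around a TpA. The last is the spot with the largest fall among called spots, which has nothing marked.
HK08546, CRE palindrome: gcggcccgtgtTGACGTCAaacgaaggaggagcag
HK39929, PAR palindrome: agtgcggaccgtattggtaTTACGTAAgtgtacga
HK32713, C/EBP palindrome: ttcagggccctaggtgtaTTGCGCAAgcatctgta
HK22086, CRE and PAR: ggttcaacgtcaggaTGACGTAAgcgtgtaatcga
HK12335, largest rise: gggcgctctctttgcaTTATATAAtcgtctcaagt
HK07360, largest fall: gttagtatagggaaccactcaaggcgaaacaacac

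The deposited values were a Z-score for each of 65535 sequences of 8 bases (8-mers) on each array, and the intensity of each of 40330 spots. A Z-score is a relative preference within an array and not an affinity. An 8-mer was carried by a median of 17 probes. The largest Z-score was 213 and 177 on the CREB1 arrays and 251 and 232 on the CEBPB(V285A) arrays. The Z-score exceeded by the top 0.1% of 8-mers was 22.1 and 29.8 for CREB1 against 46.7 and 34.9 for CEBPB(V285A), so the upper tail was wider on both mutant arrays. The median spot intensity was 1235 and 1516.5 for CREB1 and 735 and 738 for CEBPB(V285A). Across 8-mers, which share probes and are not independent, replicate arrays correlated with Pearson r of 0.937 for CREB1 and 0.958 for CEBPB(V285A), and arrays of different proteins with r between 0.799 and 0.861.

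The proteins ranked the palindromes in a different order. On CREB1, the CRE palindrome TGACGTCA had Z-scores of 213 and 177 (195 ± 24.9, mean ± SD, n = 2) and ranked first of all 8-mers on both arrays. On CEBPB(V285A) it had 174 and 135 (155 ± 27.9, n = 2) with ranks of 5 and 4. The CRE palindrome was thus lower on both mutant arrays than on either CREB1 array, with a difference of -40.4 ± 12.3 (SE). This difference did not pass the test (adjusted p 0.227, limma with Benjamini-Hochberg adjustment over all 8-mers). In the fit to the 6 arrays on C, its 95% interval was from -62.6 to -18.2. The adjusted p there was 0.0549 (limma), which did not pass either.

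The PAR palindrome TTACGTAA had Z-scores of 30.3 and 37.6 on CREB1, where it ranked 44 and 47. On CEBPB(V285A) it had 251 and 232 and ranked 1 on both arrays. The groups did not overlap, and the PAR palindrome rose by 207 ± 8.09 (SE; adjusted p 3.03e-08, limma). The C/EBP palindrome TTGCGCAA had Z-scores of 1.90 and 2.06 on CREB1, with ranks of 5758 and 4840. On CEBPB(V285A) it had 65.7 and 65.3, with ranks of 36 and 16. It rose by 63.5 ± 8.04 (SE; adjusted p 0.00109, limma). In the fit to the 4 arrays alone, the adjusted p was 0.0576 for the PAR palindrome and 0.286 for the C/EBP palindrome, and after dividing each array by the Z-score of its top 0.1% (percentile scaling) 0.788 and 0.760.

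Mixed sites were scored on each strand. TTACGTCA, a PAR half-site paired with a CRE half-site, had 48.2 and 59.7 on CREB1 and 185 and 149 on CEBPB(V285A), a called rise of 113 ± 9.67 (adjusted p 3.76e-05). Its reverse complement TGACGTAA had 69.3 and 83.8 against 211 and 173, a difference of similar size that did not pass the test (115 ± 28.0, adjusted p 0.0868). TTGCGTCA, a C/EBP half-site paired with a CRE half-site, had 12.4 and 23.4 on CREB1 and 93.1 and 77.2 on CEBPB(V285A), and it rose (adjusted p 3.89e-06). Its reverse complement TGACGCAA had 16.8 and 20.4 against 60.8 and 54.6 and did not pass (adjusted p 0.0705). TTACGCAA, a PAR half-site paired with a C/EBP half-site, rose from 10.2 and 11.9 to 128 and 109 (adjusted p 0.0218), and its reverse complement TTGCGTAA from 4.46 and 5.66 to 49.7 and 47.4 (adjusted p 0.0260). In each of these 6 mixed 8-mers, both mutant arrays were above both CREB1 arrays.

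Over all 65535 8-mers, 607 were called at an adjusted p under 0.05 (0.926%), of which 582 were higher in CEBPB(V285A) (0.888%) and 25 lower (0.0381%). The arrays of the groups did not overlap in 50.2% of all 8-mers. Both the number of calls and their direction depended on the scale. The higher calls made up 95.9% of the 607 and 97.4% of 116 calls on an arcsinh scale. They were 62.5% of 16 calls after quantile normalization and 40% of 5 calls after percentile scaling. On probe medians they were 53.6% of 1730 calls after normexp background correction and 79.9% of 3162 calls without background correction. The 4 arrays alone gave 0 calls with limma, with 12015 8-mers at an unadjusted p under 0.05. Leaving out CREB1 replicate 1 left 185 calls and leaving out CEBPB(V285A) replicate 1 left 254.

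The mean of an 8-mer and its reverse complement gives 1 value per double-stranded sequence. Of these 32895 strand-merged values, 936 were called in the fit to the 6 arrays on C (2.85%), 872 higher in CEBPB(V285A) (2.65%) and 64 lower (0.195%). The count was 272 without CREB1 replicate 1, 473 without CREB1 replicate 2 and 350 without CEBPB(V285A) replicate 1. The top sites of the proteins overlapped widely: 7 of the 10 highest, 80 of the 100 highest and 387 of the 500 highest strand-merged sequences were shared, the same share of each list. Among the 100 highest, the CRE half-site was in 87 for CREB1 and 73 for CEBPB(V285A), the PAR half-site in 10 and 21, and the C/EBP half-site in 1 and 6. CG was in 99 of the 100 for CREB1 and 93 for CEBPB(V285A). The sequence ranked second for CREB1, GTGACGTA, which holds TGACGTA, had 97.1 and 110 on CREB1 and 126 and 94.0 on CEBPB(V285A), so the arrays overlapped. Among the 10 highest of CREB1, TGACGTAA was the single one called, and the 8 others beside the CRE palindrome held ACGTCA or its reverse complement and had adjusted p from 0.866 to 0.984. The differences of these 8 had SEs from 41.7 to 68.6, so the fit could miss differences of that size in either direction.

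**Figure D1:**
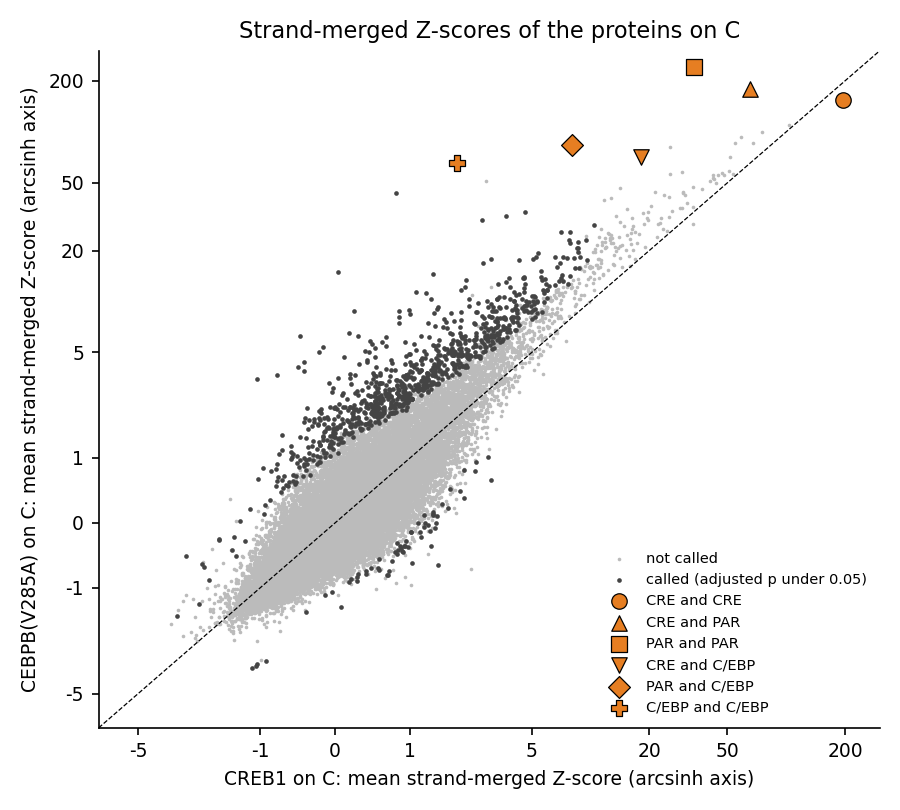
Mean strand-merged Z-score of each of 32895 sequences on CREB1 (horizontal) and CEBPB(V285A) (vertical), both on arcsinh axes, with called sequences in dark grey, the 6 pairs of CRE, PAR and C/EBP half-sites in orange whether called or not, and the line of equality dashed. The CRE palindrome is the orange pair below the line, and the other 5 pairs lie above it.

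The 6 pairs of CRE, PAR and C/EBP half-sites were ranked within each array, which does not depend on where an array's scale has its zero or on its width. On CREB1, strand-merged Z-scores ran from 195 for the CRE palindrome to 65.2 for CRE with PAR, 34.0 for the PAR palindrome, 18.3 for CRE with C/EBP, 8.06 for PAR with C/EBP and 1.98 for the C/EBP palindrome. On CEBPB(V285A), the order was the PAR palindrome (241), CRE with PAR (180), the CRE palindrome (155), PAR with C/EBP (83.5), CRE with C/EBP (71.4) and the C/EBP palindrome (65.5). Each order was the same on both arrays of the protein. Strand-merged, CRE with PAR had 58.8 and 71.7 on CREB1 and 198 and 161 on CEBPB(V285A), PAR with C/EBP 7.34 and 8.78 against 88.7 and 78.3, and CRE with C/EBP 14.6 and 21.9 against 76.9 and 65.9. The CRE palindrome was thus above CRE with PAR and the PAR palindrome on both CREB1 arrays and below both sites on both CEBPB(V285A) arrays, and CRE with C/EBP and PAR with C/EBP exchanged places. The order was not tested. Among the 19 spots with the CRE palindrome, 2 were at the scanner ceiling of 65528 on CREB1 replicate 1, 5 on CREB1 replicate 2, and 1 on CEBPB(V285A) replicate 1, so their intensities are lower bounds.

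**Figure D2:**
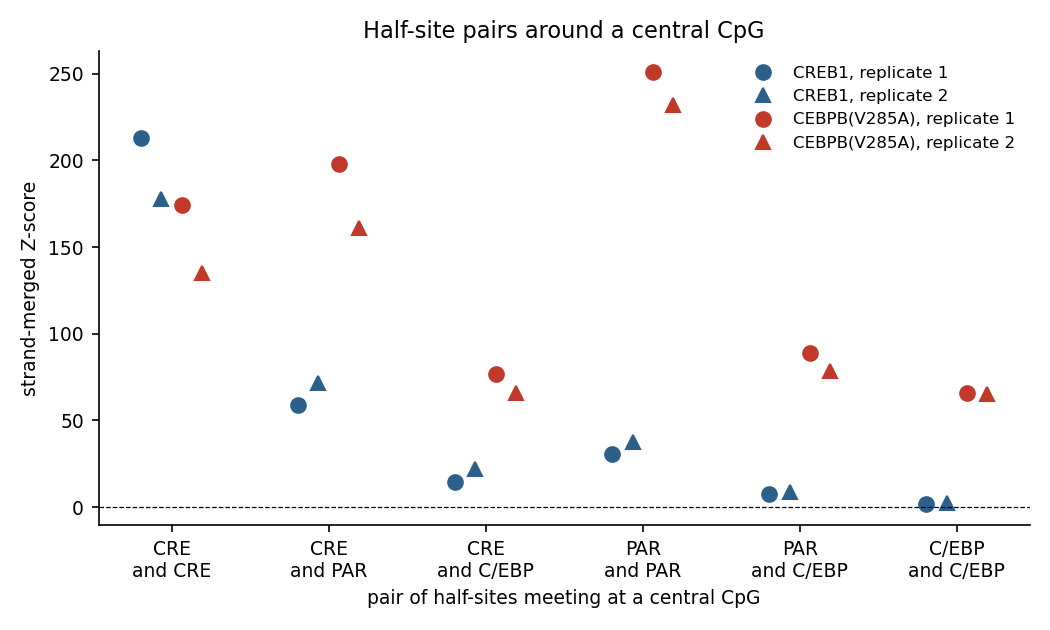
Strand-merged Z-score of the 6 half-site pairs on each array (linear axis), with CREB1 in blue, CEBPB(V285A) in red, replicate 1 as circles and replicate 2 as triangles. The red points lie above the blue in the 5 pairs other than the CRE palindrome, where they lie below, and the highest red points are at the PAR palindrome, with 251 and 232.

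In the test on strand-merged values, the PAR palindrome (adjusted p 3.8e-10) and the C/EBP palindrome (adjusted p 0.00920) rose. CRE with PAR rose as well (114 ± 16.0 SE, adjusted p 0.00156). The CRE palindrome, lower on both mutant arrays, did not pass (-40.4 ± 10.3 SE, adjusted p 0.0549). PAR with C/EBP (75.4 ± 31.6 SE, adjusted p 0.263) and CRE with C/EBP (53.2 ± 27.7 SE, adjusted p 0.392) did not pass, although both mutant arrays were above both CREB1 arrays. For both of these sites the strands differed. On CEBPB(V285A), the strand TTACGCAA scored above TTGCGTAA by 77.9 and 61.8, and on CREB1, where both strands scored lower, by 5.77 and 6.23. The strand TGACGCAA scored below TTGCGTCA by 32.3 and 22.5 on CEBPB(V285A), and differed by 4.41 and -2.94 on CREB1. The gap between the strands of CRE with PAR was 26.2 and 23.3 on CEBPB(V285A) and 21.2 and 24.1 on CREB1, in favour of TGACGTAA. Gaps between strands grew with the score in both proteins. At strand-merged Z-scores from 5 to 20, the median gap was 2.93 on CREB1 and 3.67 on CEBPB(V285A). At 50 or more it was 24.9 and 25.0. Whether any strand gap differed between the proteins was not tested. Among called 8-mers that are not their own reverse complement, 67 pairs were called on both strands in the same direction, 469 on 1 strand, and 0 in opposite directions.

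The half-site GCCA differs from those above and was included as a further comparison. The palindrome TGGCGCCA was at -0.258 and -0.173 on CREB1 and -0.384 and -0.524 on CEBPB(V285A), which did not pass. TTACGCCA, with a PAR half-site, rose from 3.28 and 4.08 to 20.4 and 16.3 (adjusted p 8.41e-05). TGGCGTCA rose from 2.37 and 4.81 to 12.7 and 12.2 (adjusted p 1.49e-05). TGACGCCA was at 9.67 and 15.8 against 14.8 and 14.2, so its arrays overlapped. TTACGCCA ranked 240 and 250 of all 8-mers on CEBPB(V285A), and TGACGCCA 210 and 170 on CREB1. Of the 7 pairs with GCCA, 4 were called higher. Of the 16 pairs of the 4 half-sites, 10 were called higher and 0 lower, against 0.888% and 0.0381% of all 8-mers.

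Lists of 8-mers that held a half-site with a given base before it, at the 3′ end or as the reverse complement at the 5′ end, were described by counts. With C before the half-site, 26 of 127 8-mers with CGTCA were called higher, 24 of 127 with CGTAA, 9 of 127 with CGCAA and 5 of 127 with CGCCA, and 0 were called lower in any of them. With T before it, 10 of 128 with TGTCA, 7 of 128 with TGTAA and 3 of 128 with TGCAA were called higher and 0 lower. With A or G before it, at most 4 of 128 were called higher, and 1 with GGCAA was called lower. These shares stand against 0.888% of all 8-mers. The median difference was 2.45 for CGTCA, 1.67 for CGTAA, 0.746 for CGCAA, 0.543 for TGTCA, 0.769 for TGTAA and 0.685 for TGCAA, and 0 over all 8-mers. The CGTCA list changed sign under other scalings: its median was -0.0246 after percentile scaling and -0.519 after quantile normalization, where 1 member was called higher and 2 lower. The medians of the PAR and C/EBP half-sites after C or T were positive under all 5 other scalings, but that of TGTCA was -0.00347 after percentile scaling.

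Other lists held known bZIP and non-bZIP sites. Of the 16 8-mers with the AP-1 heptamer TGACTCA or TGAGTCA, the site of FOS and JUN dimers, 2 were called higher and 0 lower, with a median difference of 1.24. Of the 30 with the C/EBP-ATF composite sequence, 3 were called higher and 0 lower, with a median of 1.10. The full composite site TGATGCAA rose from 1.69 and 4.10 on CREB1 to 42.0 and 47.6 on CEBPB(V285A) (adjusted p 0.0349), and its reverse complement TTGCATCA from 2.44 and 2.58 to 17.0 and 14.6 (adjusted p 1.82e-06). The E-box CACGTG, read by bHLH factors, had 1 of 48 called higher, and its median of 0.479 was -0.0276 and -0.224 after percentile scaling and quantile normalization. The ETS core CCGGAA had 0 of 95 called in either direction by limma, with a median of -0.244, and 8-mers of only A and T had 0 of 255 called, with a median of 0.423. Among 8-mers without any of these letters, 110 of 21508 with CG were called higher (0.511%) and 15 lower. Of 33890 without CG, 87 were called higher (0.257%) and 9 lower. All counts in these lists stand against 0.888% of all 8-mers called higher and 0.0381% lower.

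Several sites without the central CpG were also higher in CEBPB(V285A). The central bases of the 6 pairs were exchanged for every other dinucleotide, a set chosen after its values were seen. Half-site names then refer to the outer bases, such as TAA for PAR. With CA or TG in the centre, 7 of 9 strand-merged sequences were called higher and 0 lower, against 2.65% of all. TTACATAA, PAR half-sites around CpA, scored 2.59 and 3.15 on CREB1 and 55.6 and 47.3 on CEBPB(V285A), which did not overlap and did not pass the strand-merged test (48.6 ± 12.2 SE, adjusted p 0.0518). Its strand TTACATAA alone was called, with 2.66 and 3.47 against 69.5 and 59.7 (adjusted p 0.000704). TTATGCAA, PAR with C/EBP around TpG, rose from 1.15 and 0.419 to 45.3 and 41.8 (adjusted p 0.000213). TGACATAA and TGATGTAA, CRE with PAR around CpA and TpG, rose from means of 3.68 and 4.60 to 31.9 and 33.8 (adjusted p 0.000288 and 0.00195). TGACATCA, CRE half-sites around CpA, was at 12.6 and 18.3 against 41.4 and 28.5 and did not pass (adjusted p 0.311).

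Each of these sites scored below its pair with a central CpG in both proteins. TTATGCAA had a mean of 43.5 on CEBPB(V285A) against 83.5 with CpG, and TTACATAA 51.5 against 241. The composite site TGATGCAA, which is CRE with C/EBP around TpG, had a strand-merged mean of 30.3 on CEBPB(V285A) against 71.4 with CpG. TTGCACAA, the C/EBP half-sites around CpA, had 4.56 and 4.22 on CEBPB(V285A) and -0.384 and -0.372 on CREB1, a rise (adjusted p 2.06e-05). With TA in the centre, the PAR half-sites in TTATATAA scored 0.0545 and 0.0138 on CREB1 and 18.1 and 11.9 on CEBPB(V285A), a rise (adjusted p 8.8e-05). The 63 sequences with a centre other than CG, CA and TG, TTATATAA included, reached means of at most 15.0 on CEBPB(V285A) and 2.15 on CREB1. Of the 63, 27 were called higher and 0 lower, against 2.65% and 0.195% of all strand-merged sequences.

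Forms with 1 base of a half-site changed, other than into another pair, scored below their palindrome in both proteins. The 10 changed forms of the CRE palindrome that were not another of the 16 pairs had a median Z-score of 11.9 on CREB1 (range 1.46 to 25.1, against 195 for the palindrome) and 19.3 on CEBPB(V285A) (2.85 to 41.5, against 155), and 1 was called higher. TGACGTCG was the highest of them in both. The 10 changed forms of the PAR palindrome had a median of 5.80 on CREB1 (1.00 to 20.4, against 34.0) and 18.2 on CEBPB(V285A) (2.98 to 51.5, against 241), and 6 were called higher. The highest was TTACGTAG on CREB1 and TTACATAA on CEBPB(V285A). For the C/EBP palindrome, the 10 changed forms lay between -0.679 and 1.30 on CREB1 and between 0.151 and 4.39 on CEBPB(V285A), against 65.5 for the palindrome there, and 9 were called higher. These counts stand against 2.65% of all strand-merged sequences called higher.

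The 10 named rises on single strands held 6 half-site pairs or composite sites, 3 pairs with a changed centre, and GCTGACGT. The last holds the reverse complement of a CRE half-site, and it rose from 30.8 and 39.6 to 83.0 and 91.6 (adjusted p 1.18e-05). TTGCATAA, the opposite strand of TTATGCAA, rose from 1.72 and 0.865 to 58.9 and 55.3 (adjusted p 1.84e-05). The third changed centre, TGACATAA, rose from 6.80 and 6.04 to 43.7 and 45.9 (adjusted p 0.0179). Of the 582 called higher, 381 held a CRE, PAR or C/EBP half-site (65.5%, against 11.6% of all 8-mers) and 369 held CG (63.4%, against 38.1%). A mean Z-score of at least 5 was reached by 443 of the 582 on CEBPB(V285A) and by 180 on CREB1.

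The 8-mers called lower were few and low in both proteins. The largest fall was at AACGTACT, from 6.85 and 5.92 on CREB1 to 2.17 and 2.09 on CEBPB(V285A) (adjusted p 0.0135). AAAACGAA fell from 8.20 and 6.36 to 2.64 and 3.64 (adjusted p 0.0141), and AAAGAAGG from 3.62 and 4.25 to 0.286 and 0.891 (adjusted p 0.0205). The other 7 named falls were between -2.33 and -2.69. Only 2 of the 25 reached a mean Z-score of 5 on CREB1, and 1 held a CRE, PAR or C/EBP half-site. The 10 named falls, picked from these same arrays, kept their sign under the 5 other scalings. None was called on the arcsinh scale, after percentile scaling or after quantile normalization.

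The spot intensities, which the labels do not tie to the way Z-scores were made, were tested separately on a log2 scale after normexp background correction, with each array's median at 0. Of 40330 spots, 847 were called (2.1%), 777 higher in CEBPB(V285A) (1.93%) and 70 lower (0.174%). The count was 178 without CEBPB(V285A) replicate 1 and 214 without replicate 2. The median difference over all spots was -0.13, so differences below are against that shift. Of 157 spots that carried any pair of CRE, PAR or C/EBP half-sites around CpG, 69 were called higher. Of 312 that carried such a pair around CpA or TpG and none around CpG, 160 were called higher. Neither kind was among the 70 called lower.

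The CRE palindrome was on 19 spots, with 0 called by limma and a median difference of -0.30. On the spot HK08546, printed above, the intensity was 6462 and 8861 on CREB1 and 6155.5 and 2959 on CEBPB(V285A), lower on both mutant arrays. After each array was centred the arrays overlapped, with a difference of -0.30 ± 0.42 (SE, adjusted p 0.735). The PAR palindrome was on 18 spots, of which 14 were called higher, with a median difference of 2.15. HK39929 gave 15401 and 18501 on CREB1 and 51878 and 48523 on CEBPB(V285A) (adjusted p 0.0120). The C/EBP palindrome was on 17 spots, with 14 called higher and a median of 4.11. HK32713 gave 2573 and 4793 on CREB1 and 36394 and 33553 on CEBPB(V285A) (adjusted p 0.000245). Both palindromes were thus brighter on the mutant arrays although the median spot was dimmer there.

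The mixed sites lay between. CRE with PAR was called higher on 4 of 33 spots (median 0.90), CRE with C/EBP on 10 of 35 (median 1.47) and PAR with C/EBP on 27 of 35 (median 2.67), with 0 called lower. HK22086, with CRE and PAR half-sites, gave 33560 and 41706 on CREB1 and 54468.5 and 46885.5 on CEBPB(V285A) and was not called (adjusted p 0.217). It was brighter than the medians of the 33 spots, 11651.5 and 14456 on CREB1 and 23908.5 and 19425 on CEBPB(V285A). Its sequence also holds ACGTCA before the site in capitals, and what that adds to its intensity was not tested. HK12335, which holds TTATATAA and had the largest fitted difference among called rises, gave 1381.5 and 1866 on CREB1 and 24679 and 16689 on CEBPB(V285A) (adjusted p 7.18e-05). Its CREB1 replicate 2 intensity was below the local background of 1950, so the size of its rise and its place among the spots depend on the background correction: without it, the log2 difference was 4.55 ± 0.27 (SE, adjusted p 1.29e-08) and 12th among called rises. Of the 20 called spots with the largest fitted rise, 11 carried a pair around CpA or TpG without one around CpG, and 4 a pair around CpG. Over all spots, these shares were 0.774% and 0.389%. Among the 20, HK24821 (1383.5 against a local background of 1458.5) and HK02383 (1592 against 1649) were also below background on CREB1 replicate 2. The order of these rises thus depends on the background correction as well. The largest fitted fall among called spots was on HK07360, with 2507 and 1808 on CREB1 and 789 and 932 on CEBPB(V285A), where the local background was 502 and 856 (adjusted p 0.00807). Without background correction this spot was not called (-0.42 ± 0.31 SE, adjusted p 0.530).

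**Figure D3:**
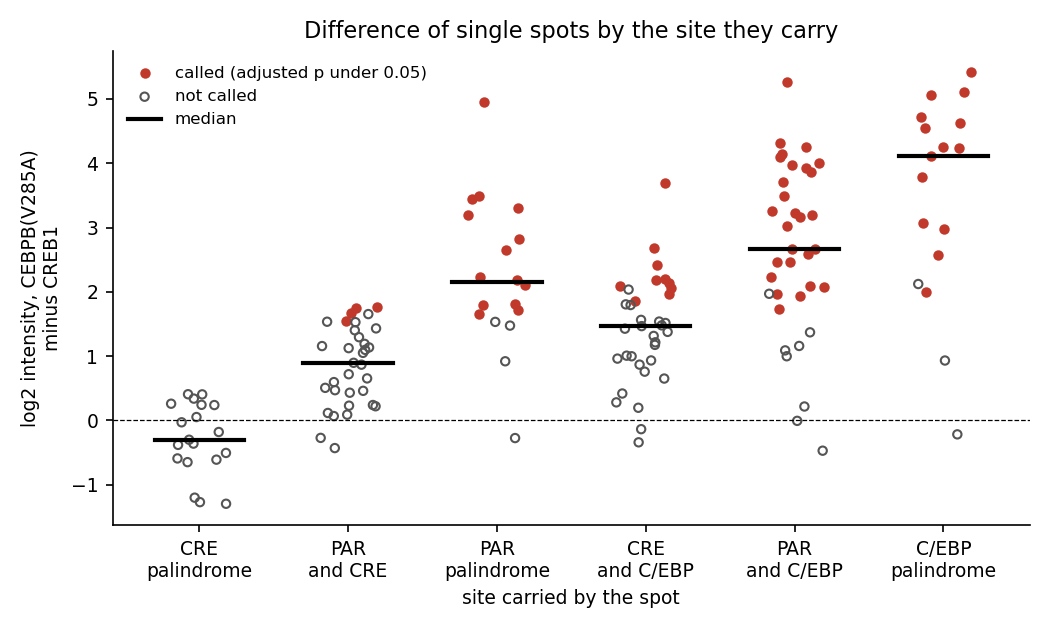
Difference in log2 intensity between CEBPB(V285A) and CREB1 (vertical) for every spot that carries a site once and no other pair, by site, with called spots filled red, others open and the median as a bar. The median rises from -0.30 for the CRE palindrome to 2.15 for the PAR palindrome and 4.11 for the C/EBP palindrome.

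Of the distances measured, half-sites were brightest when they met directly. Over the spots with half-sites at each distance, a set chosen after its values were seen, the CRE palindrome had median log2 intensities of 6.42 and 6.06 on CREB1 and 5.80 and 5.45 on CEBPB(V285A). With 1 to 6 bases between CRE half-sites, medians were at most 1.51 on CREB1 and 2.24 on CEBPB(V285A). PAR half-sites reached 3.62 and 3.73 on CREB1 and 6.15 and 6.19 on CEBPB(V285A) when they met, and at most 1.37 otherwise. C/EBP half-sites reached 0.55 and 0.68 on CREB1 and 4.35 and 4.16 on CEBPB(V285A) when they met, and at most 1.00 otherwise. Sharing the central base, as in the AP-1 heptamer, gave at most 0.68. The spacing that gave the brightest spots was therefore the same for the mutant and CREB1 for CRE and PAR half-sites.

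**Figure D4:**
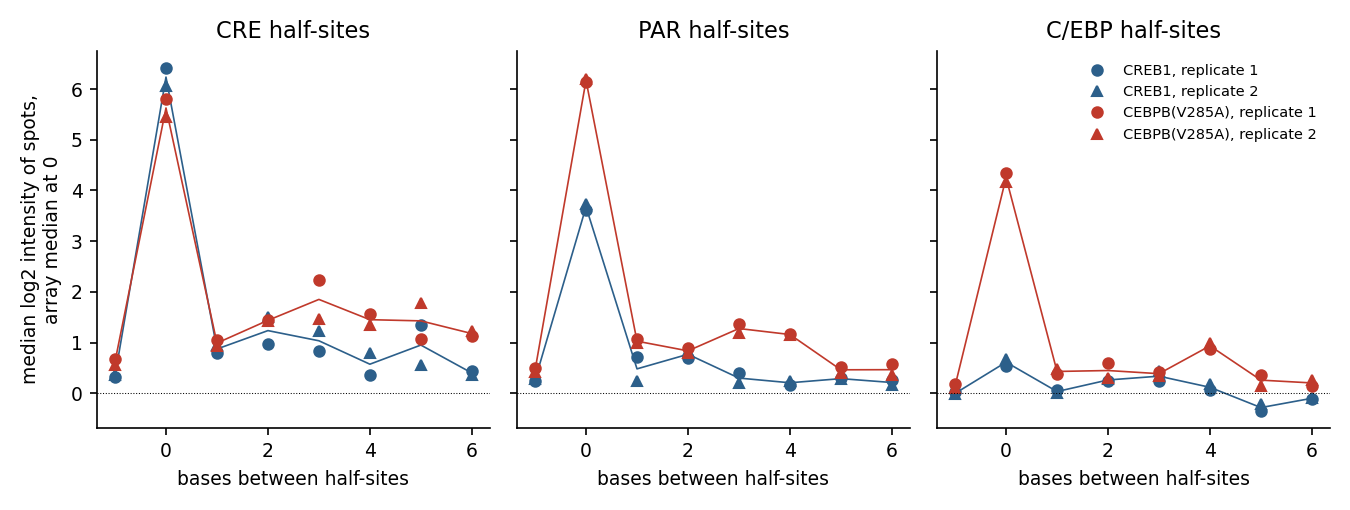
Median log2 intensity of spots, with each array's median at 0 (vertical), against the number of bases between CRE, PAR or C/EBP half-sites, where -1 means a shared central base, for CREB1 (blue) and CEBPB(V285A) (red), with points for arrays and lines for their mean. Every series peaks at 0 bases; the C/EBP peak of CREB1 is at 0.55 and 0.68 and that of CEBPB(V285A) at 4.35 and 4.16.

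The bases next to a palindrome went with its brightness. Spots were grouped by how many flanks had a purine on the 5′ side or a pyrimidine on the 3′ side (0, 1 or 2), also chosen after the values were seen and given without a test. For the C/EBP palindrome on CEBPB(V285A), the median log2 intensity was 2.32 and 1.78 with 0 such flanks (4 spots), 4.54 and 4.49 with 1 (8 spots) and 6.14 and 5.91 with 2 (5 spots). On CREB1 the same spots had -0.02 and 0.11, 0.98 and 1.15, and 0.89 and 0.68. For the PAR palindrome, CEBPB(V285A) went from 4.93 and 4.26 through 6.03 and 5.88 to 7.04 and 7.08, and CREB1 from 3.36 and 3.44 through 3.37 and 3.20 to 4.98 and 5.00. For the CRE palindrome, CREB1 went from 3.79 and 3.85 through 6.42 and 5.89 to 6.74 and 6.85, and CEBPB(V285A) from 3.92 and 3.37 through 5.80 and 5.63 to 6.53 and 6.02. The gain with flanks was thus present for the CRE palindrome in both proteins.

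**Figure D5:**
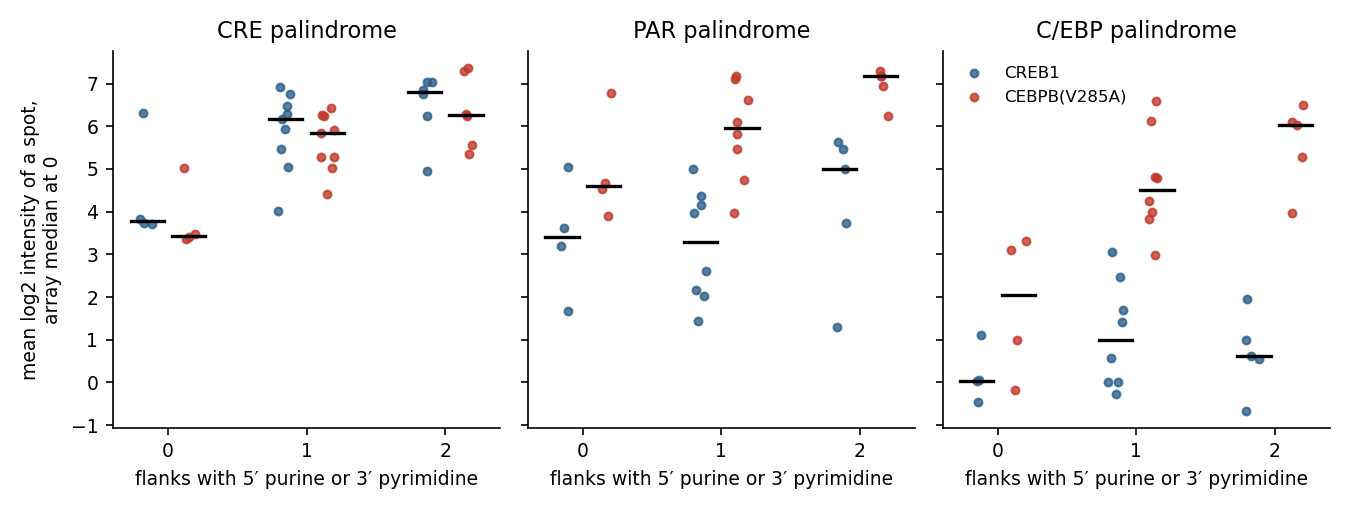
Mean log2 intensity over the arrays of a protein, with the array median at 0 (vertical), of each spot that carries a palindrome once, against the number of flanks with a 5′ purine or 3′ pyrimidine, for CREB1 (blue) and CEBPB(V285A) (red) with medians as bars. For the C/EBP palindrome the red points climb with the number of such flanks, while the blue medians per array are at most 1.15.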

How the data were processed

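Z-scores, a score per 8-mer and array, were deposited by the authors as a matrix, and spot intensities with local background intensities as a table per array, per the file headers. How the authors made these scores from probe signals is not given in the sources used here. An 8-mer in the matrix reads as the printed probe backwards (Pearson r of Z-score against probe medians between 0.947 and 0.987 on the 4 arrays). All 8-mers are written as the strand synthesised on the printed one, assuming that it was the template. The matrix gave 0 for 409 8-mers that no probe carried.

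Z-scores were compared with limma 3.58.1 in R 4.3.3, with all 21 arrays in a single fit with a mean-variance trend (11 residual degrees of freedom). Strand-merged Z-scores and log2 intensities were fitted on the 6 arrays on C (CREB1, CEBPB(V285A) and CREB1(A297V)). The log2 values were made here from the deposited intensities by normexp (offset 50) and median centring. Tests were two-sided, with Benjamini-Hochberg adjustment over all features. The fit was also run on simulated data with independent noise for each 8-mer. Real 8-mers share probes, so that run does not test the calls above. Named 8-mers were the 16 half-site pairs, the composite site and its reverse complement, the 10 highest strand-merged 8-mers of each group, and up to 10 called rises and 10 called falls with at least 8 probes, without overlap of arrays and without 7 bases shared with one named before. The comparison, members and lists were chosen with earlier results of these data known. Alternatives were other scales, samples in the fit, a replicate block and leaving out each array. The number of arrays, 2 a group, limits the precision.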

Additional observations from a re-analysis of the deposited data

How the results depend on the processing

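With 607 8-mers called on the deposited Z-scores, the count was 116 on an arcsinh scale, 5 after percentile scaling, 16 after quantile normalization, 33 with the arrays on C alone and 0 with the 4 arrays alone (limma, 12015 at an unadjusted p under 0.05). It was 1730 on probe medians after normexp and 3162 without background correction, and from 185 to 713 when 1 array was left out. In place of 936 strand-merged calls, there were 1676 with the 4 arrays alone, 592 on an arcsinh scale and from 272 to 736 with 1 array left out. For spots, 847 became 2573 without background correction, 330 after quantile normalization and from 178 to 695 with 1 array left out. The cause of these changes was not tested. Under quantile normalization, the CGTCA list had 1 member called higher and 2 lower. On probe medians after normexp, 139 8-mers with CG and other letters were called higher and 257 lower, 296 without CG higher and 495 lower, and 2 of the GGCAA list higher (5 without background correction), in place of 1 lower. Of the 26 named 8-mers called, none changed sign under the 14 alternatives. They were picked for their calls in these same arrays, so an unchanged sign adds little. None was called with the 4 arrays alone, and only TTGCGTCA and TTACGTCA were called after percentile scaling. Same-numbered arrays of the proteins tended to deviate in opposite directions across 8-mers (r = -0.381). With a replicate block the counts were 672 8-mers, 1082 strand-merged 8-mers and 1094 spots, and crossing the replicate numbers, an alternative chosen after seeing the data, gave 691 8-mers. Saturated spots limit the CRE palindrome, and 1037 and 1497 spots of the CREB1 arrays were not above local background, against 19 and 79.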

Other observations

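Half-sites after C gave smaller median differences near the linker end of the probe. For spots with CGTCA once, the median difference between CEBPB(V285A) and CREB1 (log2 intensity) was -0.06 with the first base of the site at positions 1 to 10 from the linker (720 spots), 0.32 at positions 11 to 21 (819 spots) and 0.33 at positions 22 to 31 (744 spots). Of these, 15, 14 and 15 were called higher and 1, 3 and 2 lower, beside 1.93% of all spots called higher and 0.174% lower. Spots with CGTCA at positions 1 to 10 were also dimmer in both proteins. Their median log2 intensities were 0.73 and 0.86 on CREB1 and 0.80 and 0.71 on CEBPB(V285A). At positions 11 to 21 they were 1.89 and 2.09 on CREB1 and 2.49 and 2.23 on CEBPB(V285A). The part of brightness in the smaller differences was not tested. For CGTAA the median difference was 0.13, 0.54 and 0.38, with 30 of 792, 62 of 784 and 32 of 742 spots called higher. For CGCAA it was 0.06, 0.31 and 0.22, with 29 of 739, 52 of 811 and 31 of 793 called higher.

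Of the spots called lower in CEBPB(V285A), 21 of 70 (30%) were in the first 10 of 85 columns, against 12.2% of the 777 called higher and 11.9% of all spots. Of the 70, 10 carried a CRE, PAR or C/EBP half-site after C (14.3%), against 33.7% of those called higher and 16.7% of all spots. The part of slide position in these calls was not tested.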
